A study of Mus musculus with 10 samples.

Results

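Cilia and flagella associated protein (Cfap) genes were followed in the testes of Mov10-/- and Mov10+/+ mice at postnatal day 21 (P21). The set holds every protein-coding gene whose symbol starts with Cfap in the mouse annotations used here. These were 34 of the 55421 genes in the count files. 31 of them carry the symbol in the mm10 gene annotation used here, and 3 carry it only in a newer naming of the same loci (Cfap410 as 1810043G02Rik, Cfap20dc as 4930452B06Rik and Cfap47 as Gm7173). All 34 were among the 20240 genes tested. Those exceeded 1 RPM (reads scaled to library size) in 3 or more of the 6 RNA-seq libraries. Some Cfap names of the lists used below matched no gene under that symbol and are absent from the set. They are Cfap68, Cfap90, Cfap91, Cfap95, Cfap107, Cfap119, Cfap141, Cfap210, Cfap251, Cfap263, Cfap276 and Cfap418. Of the 14 names listed for proteins inside the doublet tubules, 7 were matched.

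RNA was taken from whole testis pairs, 3 of them wild type and 3 Mov10-/-, all at P21, and sequenced after poly(A) selection with a stranded kit. MOV10 is an RNA helicase, and the Mov10-/- mice are a global knockout made with the ubiquitous Actb-Cre on a mixed 129, C57BL/6 and FVB background, so that germ cells and somatic cells of the testis both lack the protein. Wild type libraries are numbered 1, 2 and 3 and Mov10-/- libraries 2, 3 and 4. MOV10-bound RNA of wild type testes was sequenced in 4 further CLIP-seq libraries, in which ultraviolet light links the protein to RNA before it is recovered with an antibody.

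The motile cilium and the sperm flagellum share a core, the axoneme, in which a ring of doublet microtubules surrounds a central pair. Cfap proteins sit throughout it, as projections of the central pair, as parts of radial spokes, as tethers and regulators of the inner dynein arms, and inside the doublet tubules, while a few act in the cytoplasm where dynein arms are put together. In the testis many of their genes switch on during meiotic prophase, well before a flagellum grows, and others wait for round spermatids. At P21 the first wave of spermatogenesis has only just reached round spermatids.

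The transcription factors RFX2 and FOXJ1 drive cilium and flagellum genes, and RFX factors bind the X-box, an inverted repeat with half-sites such as GTTGCCA. RefSeq promoter windows (GRCm38.p6, 250 bases before to 50 after each start) matched 27 of the 34 members, with 30 windows in all. GTTGCCA on either strand was found in 9 of the 30 (30.0%), against 4.38% of all 32851 windows, and the longer GTTGCCATG, which contains it, in 4 (13.3%) against 0.773%. A second form of the half-site, GTTGCTA, which was chosen after the promoters had been read, was in 8 (26.7%) against 3.66%. One or the other form was present in 16 windows (53.3%) of 15 genes, against 7.63% of all windows. The forkhead motif TGTTTAC was in 2 windows (6.67% against 3.65%), and the cyclic AMP response element TGACGTCA in 0 (against 1.79%). A match is a description of the letters and not a site of binding, and the shares in all windows were not matched for base composition.

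Stretches of 80 bases are shown for members with a match, because they carry the half-sites, the motif searched with the largest gap between the members and all windows, and they end at most 20 bases after the start. They lie, in GRCm38.p6, for Cfap44 at chr16:44394735-44394814 (plus strand), Cfap45 at chr1:172521070-172521149 (plus strand), Cfap161 at chr7:83794864-83794943 (minus strand), Cfap70 at chr14:20452206-20452285 (minus strand), Cfap69 at chr5:5664213-5664292 (minus strand), Cfap61 at chr2:145934724-145934803 (plus strand) and Cfap58 at chr19:47937616-47937695 (plus strand). Each is printed along the strand of its gene, and capitals mark every match to GTTGCCA or GTTGCTA or to their reverse complements TGGCAAC and TAGCAAC.
Cfap44: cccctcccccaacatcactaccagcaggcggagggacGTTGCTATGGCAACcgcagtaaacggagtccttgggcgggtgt
Cfap45: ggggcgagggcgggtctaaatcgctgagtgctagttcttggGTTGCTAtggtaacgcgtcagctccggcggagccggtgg
Cfap161: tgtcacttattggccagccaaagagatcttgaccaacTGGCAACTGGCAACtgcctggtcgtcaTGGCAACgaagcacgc
Cfap70: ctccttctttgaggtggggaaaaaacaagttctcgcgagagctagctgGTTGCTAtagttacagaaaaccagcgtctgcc
Cfap69: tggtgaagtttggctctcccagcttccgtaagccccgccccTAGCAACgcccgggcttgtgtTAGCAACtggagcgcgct
Cfap61: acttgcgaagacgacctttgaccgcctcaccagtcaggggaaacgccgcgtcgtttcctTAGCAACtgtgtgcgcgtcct
Cfap58: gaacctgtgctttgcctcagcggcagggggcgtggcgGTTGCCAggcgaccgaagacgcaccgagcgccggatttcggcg
Of the 20 matches in the first window of each of the 15 genes, 13 were centred within the 100 bases before the start. In Cfap44, a tether of the inner dynein arm, a half-site of each form adjoined the other as an inverted repeat, centred 24 and 17 bases before the start. Cfap161, a protein inside the doublet tubule, held 3 matches.

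Cfap97d1 and Cfap100, the members with the most negative fold changes below, had neither form in their windows, and the same held for Cfap47 and Cfap77. For Cfap97d1 and Cfap100, 150 bases are shown because they carry the largest differences, at chr11:101986926-101987075 (plus strand) for Cfap97d1 and chr6:90428461-90428610 (minus strand) for Cfap100, with the first 20 transcribed bases after the RefSeq start in capitals.
Cfap97d1: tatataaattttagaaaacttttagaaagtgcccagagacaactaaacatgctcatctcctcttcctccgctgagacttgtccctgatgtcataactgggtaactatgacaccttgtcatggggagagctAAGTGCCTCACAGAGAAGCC
Cfap100: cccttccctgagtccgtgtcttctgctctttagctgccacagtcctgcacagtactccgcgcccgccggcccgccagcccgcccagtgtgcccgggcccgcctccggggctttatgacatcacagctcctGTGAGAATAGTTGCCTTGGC
The 15 members with a half-site of either form had a median log2 fold change (Mov10-/- against wild type) of -0.23, the 12 with a window but no match one of -0.41, and the 7 without a window one of -0.28. The lowest value was -1.17 among those with a match and -3.91 among those without. This grouping uses the form chosen after the promoters had been read, and whether the groups differ was not tested.

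The RNA-seq libraries held 5083407 to 9230540 reads on genes, with the lowest number in Mov10-/- replicate 3, where 57.2% of reads did not align. Levels are given in CPM, counts scaled to the size of the library, after TMM scaling, which adjusts for differences in RNA composition. Mov10 itself, the check of the labels, averaged 110 ± 11.9 CPM in wild type libraries and 27.4 ± 1.38 CPM in those of the knockout (SD, n = 3 per genotype), a log2 fold change of -2.00 (SE 0.12). Its adjusted p was 0.00552 in the quasi-likelihood test of edgeR, with p-values adjusted by the Benjamini-Hochberg method over all genes tested, as for each adjusted p below. Nothing in the labels says more of the animals than the genotype and age, so that the p-values measure the spread between these libraries. In whole testis, fewer cells of a type and less RNA per cell cannot be told apart.

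Wild type means of the Cfap genes ran from 5.89 CPM for Cfap97d2 to 424 CPM for Cfap65, with a median of 83.4 CPM, and together they took 0.375% to 0.465% of the reads on genes in wild type libraries. Per kilobase of exon, the scale on which genes can be compared, the order was led by Cfap206 with 67.7 CPM per kb, Cfap57 with 56.7, Cfap65 with 54.3 and Cfap70 with 49.6, and the median over the members was 26.4.

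The wild type ranges of neighbours in this order overlapped. Cfap206, which anchors a radial spoke, stood at 157, 199 and 149 CPM in wild type replicates 1, 2 and 3 and at 128, 190 and 151 CPM in Mov10-/- replicates 2, 3 and 4. Cfap57, an inner dynein arm component, stood at 203, 268 and 212 CPM in wild type and at 153, 234 and 198 CPM in Mov10-/- libraries. Cfap70, of the central apparatus list, stood at 195, 245 and 199 CPM in wild type and at 127, 202 and 172 CPM in Mov10-/- libraries. In all 3 the groups overlapped, and the lowest library was Mov10-/- replicate 2 and the highest wild type replicate 2.

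The comparison of genotypes asks whether loss of MOV10 alters these mRNAs. A gene was called where its fold change exceeded 2 at an adjusted p of less than 0.05. The quasi-likelihood test of edgeR called 0 of the 34 members lower and 0 higher, with adjusted p between 0.15 and 0.909, and it called 0.00494% of all genes tested (1 gene, Mov10) lower. At an unadjusted p under 0.05, 8 members were lower and 0 higher, against 11.9% and 5.57% of all genes. Every Mov10-/- library lay below every wild type library in 8 members, against 14.1% of all genes, and above in 0, against 11.9%. The share of the members was 23.5% in both counts of lower genes. The 8 at an unadjusted p under 0.05 became 4 when Mov10-/- replicate 2 was left out, 5 when wild type replicate 2 was, and 16 when Mov10-/- replicate 3 was. In the same 3 fits 7.58%, 6.47% and 11.7% of all genes were lower.

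The number called depended on the test. edgeR's exact test called 4 members lower (Cfap97d1, Cfap100, Cfap47 and Cfap58) where it called 5.09% of all genes lower. Its likelihood ratio test called 4 where 5.45% of all genes were lower, and DESeq2 called 3 (Cfap97d1, Cfap47 and Cfap58) where 4.88% were, while limma's voom called 0. Each of these called 0 members higher.

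31 of the 34 members had a negative log2 fold change and 3 a positive one, and the median was -0.27, where the median of all genes tested was 0.032. The differences were small for most: 26 members lay within 0.5 of 0 on the log2 scale, and 5 were more than 2-fold lower. The plot of levels in each library shows the members in order of their fold change.

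**Figure D1:**
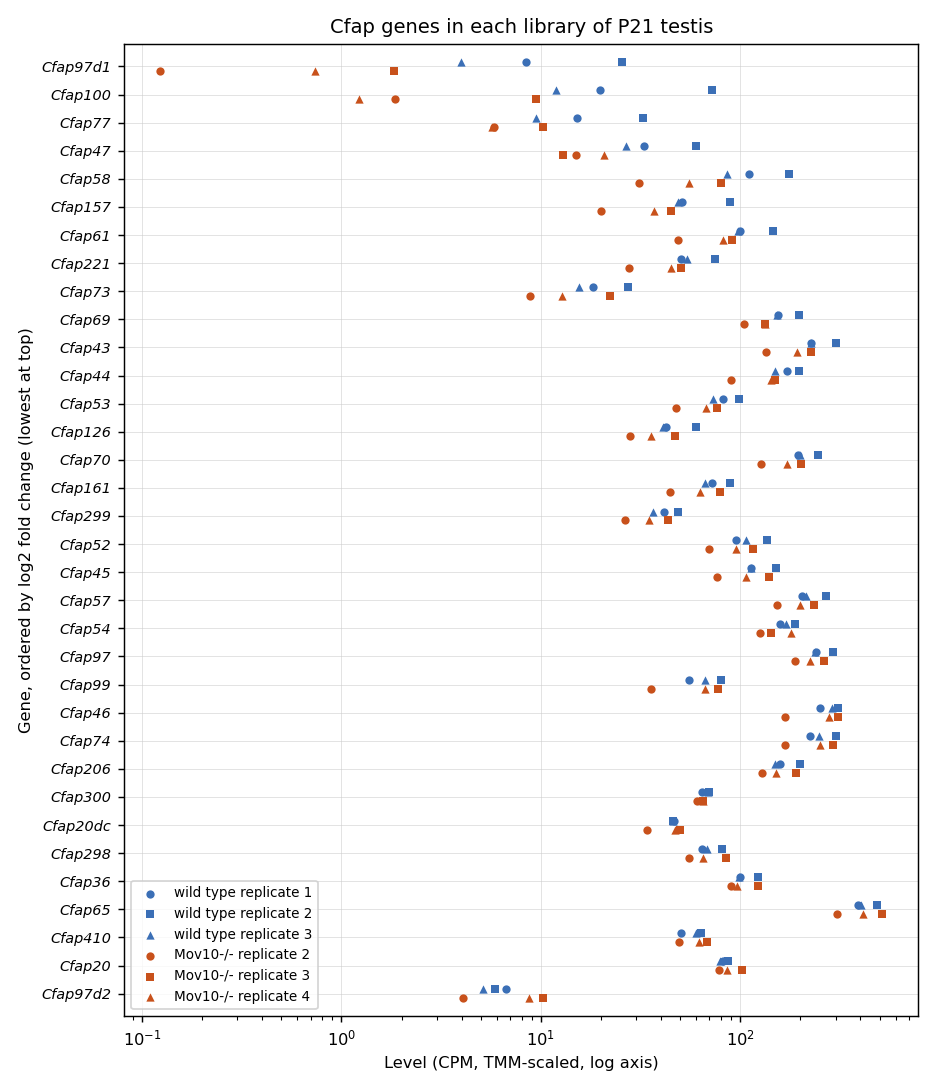
Level of each of the 34 Cfap genes (rows, lowest log2 fold change at the top) in each library, in TMM-scaled CPM on a log axis, with wild type libraries in blue and Mov10-/- libraries in orange and the marker shape giving the library. Wild type replicate 2 is the highest point in 26 rows and Mov10-/- replicate 2 the lowest in 31, and the groups are apart in 8.

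Cfap97d1, a hemingway family protein of the sperm flagellum (ENSMUSG00000010841, mm10 chromosome 11, 101984279 to 101992264), had the most negative fold change. Its level was 8.44, 25.4 and 3.96 CPM in wild type replicates 1, 2 and 3 (72, 186 and 37 reads) and 0.124, 1.84 and 0.737 CPM in Mov10-/- replicates 2, 3 and 4 (1, 9 and 6 reads). The groups did not overlap, but wild type libraries alone spanned 6.41-fold. The log2 fold change was -3.91 (SE 0.94, adjusted p = 0.15, quasi-likelihood test of edgeR). Adjusted p was 0.00552 in edgeR's exact test, which estimates the spread of a gene in another way.

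Cfap100 (ENSMUSG00000048794, mm10 chromosome 6, 90403479 to 90428797) encodes a subunit of the complex that modifies inner dynein arms. It was at 19.7, 71.7 and 11.9 CPM in wild type and at 1.85, 9.41 and 1.23 CPM in Mov10-/- libraries. Mov10-/- replicate 3 thus lay just below wild type replicate 3. The log2 fold change was -3.13 (SE 0.92, adjusted p = 0.167), and -2.01 without wild type replicate 2. Its partner in the same complex, Cfap73, stood at 18.3, 27.3 and 15.5 CPM in wild type and at 8.77, 22.1 and 12.8 CPM in Mov10-/- libraries, overlapping, with a log2 fold change of -0.49 (SE 0.38). Whether these partners differ was not tested.

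Cfap47 (ENSMUSG00000073077, mm10 chromosome X, 79266559 to 79517285), a central apparatus protein and the only X-linked member, was at 32.9, 60.0 and 26.8 CPM in wild type and at 14.9, 12.9 and 20.6 CPM in Mov10-/- libraries. The groups did not overlap. Cfap47 was the single member in which Mov10-/- replicate 3 was the lowest of all 6 libraries. The log2 fold change was -1.30 (SE 0.34, adjusted p = 0.15), and it was -1.24 without Mov10-/- replicate 2 and -0.87 without wild type replicate 2.

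Cfap58 (ENSMUSG00000046585, mm10 chromosome 19, 47937675 to 48035387), needed to assemble the sperm flagellum, was at 110, 175 and 85.6 CPM in wild type and at 30.9, 79.8 and 55.3 CPM in Mov10-/- libraries. The groups did not overlap, with Mov10-/- replicate 3 just below wild type replicate 3. The log2 fold change was -1.17 (SE 0.37, adjusted p = 0.179), and it was -0.89 without Mov10-/- replicate 2. Cfap77, a protein inside the doublet tubule, was at 15.1, 32.3 and 9.41 CPM in wild type and at 5.80, 10.2 and 5.65 CPM in Mov10-/- libraries, so that its groups overlapped, with a log2 fold change of -1.40 (SE 0.49, adjusted p = 0.21).

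4 further members had groups that did not overlap, with smaller differences. Cfap157, a basal body protein of spermatids, was at 50.9, 88.5 and 48.8 CPM in wild type and at 20.0, 45.0 and 36.7 CPM in Mov10-/- libraries (log2 fold change -0.89, SE 0.34). Cfap61, of the calmodulin and spoke associated complex, was at 100, 146 and 97.8 CPM in wild type and at 48.9, 90.6 and 81.7 CPM in Mov10-/- libraries (-0.64, SE 0.25). In both, wild type replicates 1 and 3 were close to each other and replicate 2 stood above them.

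Cfap221, of the central apparatus, was at 50.6, 75.0 and 54.0 CPM in wild type and at 27.8, 50.3 and 45.0 CPM in Mov10-/- libraries (log2 fold change -0.55, SE 0.25), with Mov10-/- replicate 3 barely below wild type replicate 1. Cfap69, which also acts in olfactory cilia, was at 155, 197 and 152 CPM in wild type and at 104, 133 and 134 CPM in Mov10-/- libraries (-0.45, SE 0.15). Cfap69 had the smallest standard error of the 8. The adjusted p of these 4 genes lay between 0.19 and 0.304.

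At the other end, 3 of the 4 members nearest to 0 were genes also used outside motile cilia. Cfap410, a basal body protein, was at 50.5, 63.3 and 60.2 CPM in wild type and at 49.0, 68.3 and 61.9 CPM in Mov10-/- libraries (log2 fold change 0.041, SE 0.16). Cfap36 was at 99.5, 122 and 98.3 CPM in wild type and at 89.8, 122 and 96.7 CPM in Mov10-/- libraries (-0.054, SE 0.15). Cfap298, a cytoplasmic factor for dynein arm assembly, was at 64.5, 80.4 and 68.2 CPM in wild type and at 55.5, 84.9 and 64.6 CPM in Mov10-/- libraries (-0.061, SE 0.17). In each of these the groups overlapped.

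The 3 members with a positive value were Cfap97d2 (0.37, SE 0.39, from a wild type mean of 5.89 CPM), Cfap20 (0.098, SE 0.12) and Cfap410. Without Mov10-/- replicate 3 the value of Cfap20 was -0.012 and that of Cfap410 was -0.064. Cfap97d2, a paralog of Cfap97d1, thus stood on the other side of 0 from it, with a standard error larger than its own value.

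By role in the axoneme, every group had members with small differences, and each group with a large one had it in 1 to 3 genes. The counts of lower genes by role use an unadjusted p under 0.05, at which 11.9% of all genes were lower. Of the 8 central apparatus genes, 2 were lower at an unadjusted p under 0.05 (Cfap47 and Cfap69) and the median log2 fold change was -0.27, with Cfap54 at -0.20, Cfap46 at -0.17, Cfap74 at -0.13 and Cfap65 at -0.050. Of the 5 inner dynein arm genes 1 was lower (Cfap100) and the median was -0.45, with Cfap43 at -0.45, Cfap44 at -0.43 and Cfap57 at -0.23. Of the 7 genes for proteins inside the doublet tubules 1 was lower (Cfap77) and the median was -0.30, with Cfap53 at -0.41, Cfap126 at -0.38, Cfap161 at -0.30, Cfap52 at -0.27 and Cfap45 at -0.24.

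Both radial spoke genes were lower in value, 1 of them at an unadjusted p under 0.05 (Cfap61, beside Cfap206 at -0.11). Neither gene of the cytoplasmic assembly of dynein arms was lower at that threshold, though both values were negative (Cfap300 at -0.090 and Cfap298 at -0.061). Among the 7 genes of the basal body, the hemingway family and other roles, 3 were lower (Cfap97d1, Cfap58 and Cfap157) and the median was -0.19, with Cfap97 at -0.19. No role was given to Cfap299 at -0.28, Cfap99 at -0.18 and Cfap20dc at -0.086. The plot by role shows that the standard errors were largest for Cfap97d1 and Cfap100.

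**Figure D2:**
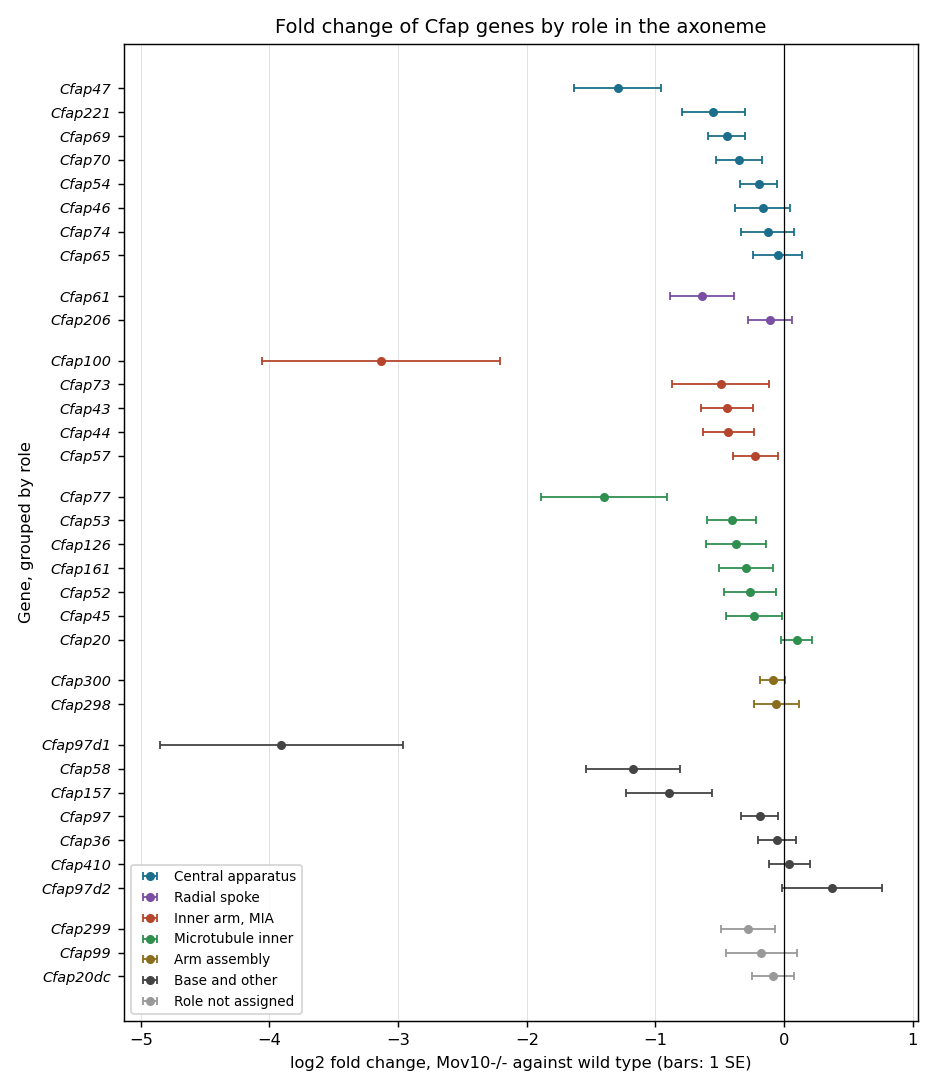
Log2 fold change of each Cfap gene in Mov10-/- against wild type testes (points) with 1 standard error (bars), grouped and coloured by the role of the protein. Cfap97d1 at -3.91 and Cfap100 at -3.13 lie far from the rest of their groups, and 26 of the 34 genes lie within 0.5 of 0.

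The members were also listed by the stage at which they are held to switch on. These lists came from general knowledge and were chosen with earlier results of these data known. Cfap47 was listed as late because it is X-linked and the X is silenced in pachytene. The 5 broadly expressed members had a median log2 fold change of -0.054. The 16 axonemal members on from meiotic prophase had one of -0.31 and the 4 spermatid-late members one of -1.09. At an unadjusted p under 0.05, 0 of the 5, 2 of the 16 (12.5%) and 3 of the 4 were lower, where 11.9% of all genes were. The meiotic count became 0 without Mov10-/- replicate 2 and 8 without Mov10-/- replicate 3, and the spermatid-late count became 2 without either library numbered 2. The share of all genes lower was 7.58% without Mov10-/- replicate 2, 11.7% without Mov10-/- replicate 3 and 6.47% without wild type replicate 2. The spermatid-late members were Cfap97d1, Cfap47, Cfap157 and Cfap65, so that 2 of the 5 lowest values of the whole set came from this list of 4. Cfap65, placed in the list for its role in the spermatid flagellum, went against it. It was at 388, 482 and 403 CPM in wild type and at 304, 515 and 413 CPM in Mov10-/- libraries, overlapping, with a log2 fold change of -0.050 (SE 0.19).

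9 members were given no stage. They held Cfap100, Cfap77 and Cfap58, among the 5 lowest values, beside Cfap126, Cfap161, Cfap299, Cfap99, Cfap20dc and Cfap97d2, and their median was -0.30. Without Mov10-/- replicate 2 the medians were 0.066 for the broadly expressed, -0.15 for the meiotic and -0.94 for the spermatid-late list. Without wild type replicate 2 they were 0.057, -0.18 and -0.72. The order of the 3 lists was thus the same in both, and whether the lists differ was not tested.

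Which library was lowest was nearly the same for every member. Mov10-/- replicate 2 was the lowest of the 6 libraries in 31 of the 34 members (91.2%, where it was the lowest in 30.2% of all genes tested). Mov10-/- replicate 4 was lowest in 2 (Cfap100 and Cfap77) and Mov10-/- replicate 3 in 1. Wild type replicate 2 was the highest in 26 members (76.5%, against 29.2% of all genes) and Mov10-/- replicate 3 in the other 8. No member had its lowest library among the wild type.

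The members' share of reads on genes tells the same by library: 0.263% in Mov10-/- replicate 2, 0.390% in replicate 3 and 0.354% in replicate 4, beside 0.375%, 0.465% and 0.376% in wild type replicates 1, 2 and 3. Mov10-/- replicate 3 thus lay inside the wild type range. Without Mov10-/- replicate 2 the median log2 fold change of the members was -0.10, and 23 of 34 were negative. Without Mov10-/- replicate 3 it was -0.46, and 33 were negative.

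Cfap97d1, Cfap100, Cfap47, Cfap77 and Cfap58 had log2 fold changes of -0.78 or lower with any library left out. Cfap77 reached -0.78, Cfap58 -0.84, Cfap47 -0.87, Cfap100 -2.01 and Cfap97d1 -2.91, each without wild type replicate 2. Leaving out Mov10-/- replicate 2 moved most members toward 0 or past it, as the plot of fold changes with a library left out shows.

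**Figure D3:**
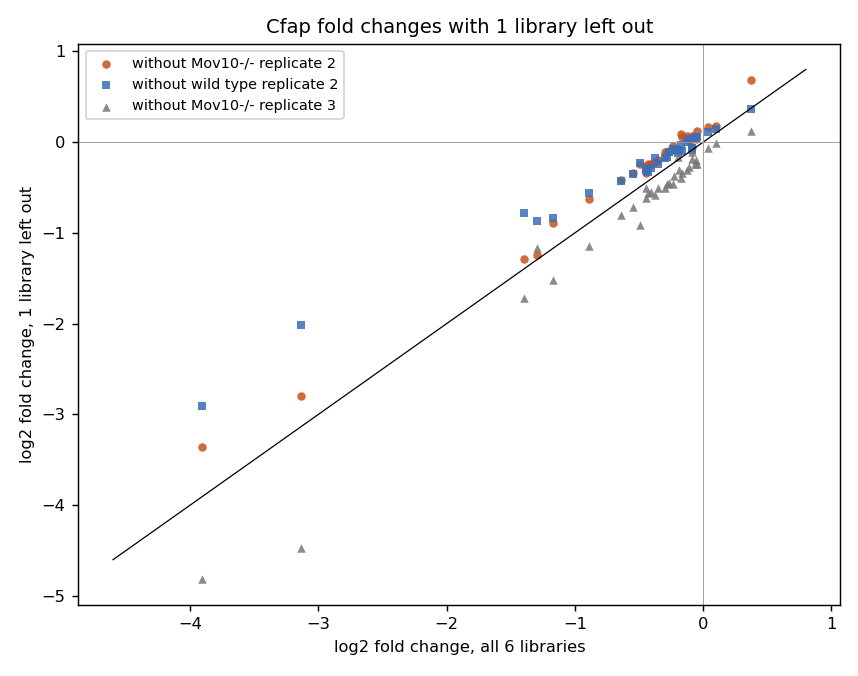
Log2 fold change of each Cfap gene with 1 library left out (vertical) against its value with all 6 libraries (horizontal), for 3 choices of library, with the diagonal as the line of equal values. Leaving out Mov10-/- replicate 2 or wild type replicate 2 places nearly all points above the line, with medians of -0.10 and -0.14, and leaving out Mov10-/- replicate 3 places nearly all below it, with a median of -0.46.

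Markers of the cell types in the testis moved between the same libraries. The 30 spermatid markers tested (the protamine Prm2, acrosome genes and fibrous sheath genes among them) had a median log2 fold change of -2.20. Of them, 25 were lower at an unadjusted p under 0.05, against 11.9% of all genes. The 30 markers summed to 1144, 2579 and 849 CPM in wild type replicates 1, 2 and 3. In Mov10-/- replicates 2, 3 and 4 they summed to 375, 850 and 528 CPM. As in the Cfap genes, wild type replicate 2 was highest and Mov10-/- replicates 4 and 2 were lowest. By this sum Mov10-/- replicate 3 was level with wild type replicate 3. The median over the markers of the log2 ratio to the wild type mean was lower there, at -1.09 against -0.79 in wild type replicate 3. The part of spermatid number in the Cfap differences was not tested.

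Earlier germ cell lists differed less. The 13 pachytene spermatocyte markers had a median of -0.13 with 0 at an unadjusted p under 0.05, and their summed level ran from 1541 CPM in Mov10-/- replicate 2 to 2274 CPM in Mov10-/- replicate 3. The 24 early meiotic markers had a median of 0.081 and sums of 2221 to 2363 CPM. The 14 spermatogonial markers had a median of 0.21 and sums of 595 to 797 CPM. Of these, 1 was higher at an unadjusted p under 0.05, where 5.57% of all genes were higher and 11.9% lower.

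Somatic lists leaned the other way. The 12 Sertoli cell markers had a median of 0.31 with 6 higher at an unadjusted p under 0.05, against 5.57% of all genes. The 12 summed to 1073 to 1286 CPM in Mov10-/- and 885 to 997 CPM in wild type libraries. Medians were 0.25 for 7 Leydig cell, 0.33 for 6 peritubular and 0.32 for 8 macrophage markers. The plot of list medians sets the Cfap lists beside those of the germ cells and of Sertoli cells.

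**Figure D4:**
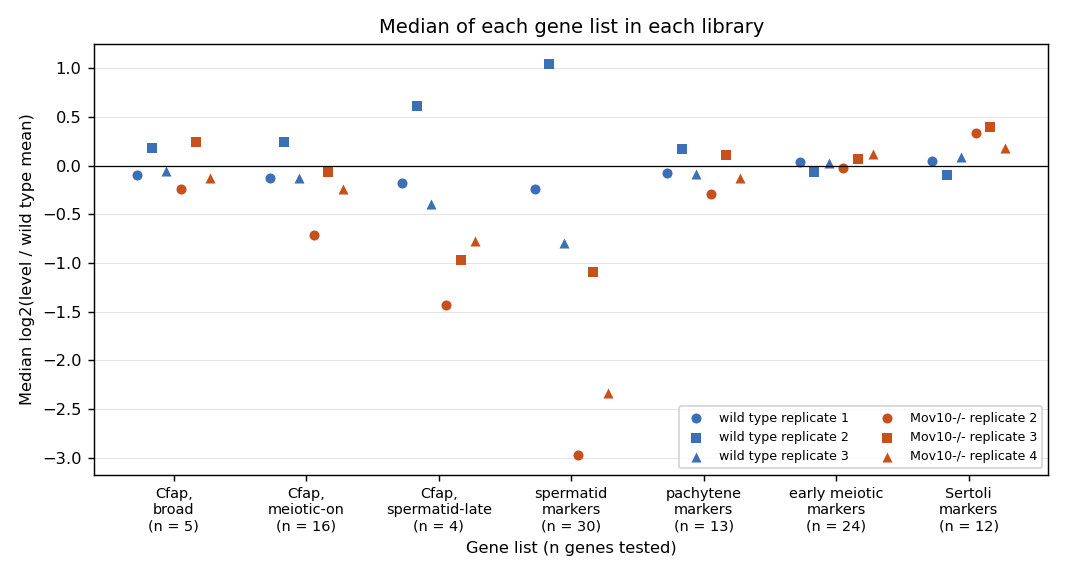
Median over the genes of each list of the log2 ratio of a library's level to the wild type mean, with wild type libraries in blue and Mov10-/- libraries in orange and the marker shape giving the library. In the spermatid-late Cfap list the medians run from 0.61 in wild type replicate 2 to -1.44 in Mov10-/- replicate 2, in the spermatid markers from 1.05 to -2.97, and in the early meiotic markers from -0.061 to 0.12.

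Other motile ciliated cells could also give Cfap mRNA, because the efferent ducts beside the testis carry multiciliated cells. Of 7 genes of the multiciliated programme 3 were tested, with a median of -0.80. At an unadjusted p under 0.05, 2 of them were lower, against 11.9% of all genes. Germ cells use some genes of this programme as well. The defining regulators Mcidas and Gmnc were not tested, with 2 to 10 and 1 to 8 reads per RNA-seq library, and Sntn, of the cilium tip, had 0 to 2. Of 8 markers of efferent duct and epididymal epithelium 4 were tested, and Lcn8 and Lcn9 had no read in any RNA-seq library. The summed level of the 4 tested was 99.9 CPM in Mov10-/- replicate 2 and 7.57 to 38.9 CPM in the other 5 libraries. Crisp1 gave 69.8 CPM of the 99.9. Pax8 gave 18.8 CPM (1.43 to 5.03 CPM elsewhere) and Pax2 8.52 CPM (0.369 to 4.28 CPM elsewhere). Lcn5, which was not tested, had 25 reads there, 15 in wild type replicate 3 and 0 in the other libraries. Slc9a3, of the same list, went the other way, at 2.84 CPM there and at 4.30 to 9.95 CPM elsewhere. These genes were named after their values were seen. The 3 multiciliated genes summed to 40.5 CPM in Mov10-/- replicate 2 and to 72.2 to 179 CPM elsewhere. The part of these cells in the Cfap differences was not tested.

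The regulators of flagellum genes had mixed values. Of 10 transcription regulators, 2 were lower at an unadjusted p under 0.05 and 0 higher, against 11.9% and 5.57% of all genes. The median log2 fold change of the 10 was -0.25. Foxj1, the master factor of motile cilia, was at 49.8, 107 and 49.1 CPM in wild type and at 17.9, 45.8 and 30.3 CPM in Mov10-/- libraries, without overlap (log2 fold change -1.14, SE 0.41, adjusted p = 0.216). Rfx3 was at 46.9, 64.5 and 38.5 CPM in wild type and at 38.5, 36.0 and 31.1 CPM in Mov10-/- libraries (-0.50, SE 0.21).

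Rfx2, the RFX factor of spermatocytes and spermatids, was at 192, 259 and 220 CPM in wild type and at 172, 313 and 218 CPM in Mov10-/- libraries (log2 fold change 0.065, SE 0.22). Crem, the activator of round spermatid genes, had a value of -0.29 (SE 0.13) without overlap of the groups, and Mybl1, a regulator of pachytene spermatocytes, one of -0.13 (SE 0.093). Rfx1, Rfx4, Sox30, Taf7l and Tbpl1 had values from -0.49 to 0.18.

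Partners of the Cfap proteins in the axoneme had medians near that of the set, and transport into the cilium had one nearer 0. The 7 central apparatus partners had a median log2 fold change of -0.36 with 3 lower at an unadjusted p under 0.05, the 12 genes of the nexin-dynein regulatory complex and the ruler one of -0.22 with 3 lower, and the 10 dynein arm assembly factors one of -0.22 with 2 lower. The 19 genes of intraflagellar transport, which builds cilia of all kinds, had a median of -0.064 with 0 lower. The quasi-likelihood test of edgeR called 0 genes of these lists. At an unadjusted p under 0.05 none of them stood higher, where 5.57% of all genes were higher and 11.9% lower.

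Few reads of the CLIP-seq libraries lay on genes, 3404 to 4934 per library. In the deposited counts 99.5% to 99.6% of their reads did not align, or 9419851 to 15104547 per library. The study's own analysis of its CLIP-seq reports many bound transcripts, and these counts were not compared with it. Replicates 1, 2, 3 and 5 held 3, 5, 3 and 9 reads on the 34 members together, or 0.076% (95% exact binomial interval 0.0157% to 0.222%), 0.146%, 0.0881% and 0.182% (0.0834% to 0.346%). In wild type RNA-seq the same genes took 0.375% to 0.465% of the reads, above the upper bound in every CLIP-seq library, but the 2 assays also differ in which RNA they select. Among replicates 1, 2 and 3 the differences were smaller than sampling noise, and they counted as 1 library, which leaves 2 separate libraries and no test. The intervals cover counting error only.

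9 members had a CLIP-seq read and 25 had none. Cfap65, the member with the highest level in RNA-seq, had 7 over the 4 libraries and Cfap74 had 3, while Cfap300, Cfap46 and Cfap61 had 2 each and Cfap100, Cfap221, Cfap43 and Cfap54 had 1 each. These totals add replicates 1, 2 and 3, which counted as 1 library above. Cfap65 had 1, 2 and 2 reads in these replicates, and Cfap74 had 1, 1 and 1. A count of 0 allows a share of up to 0.0608% to 0.0881% of a library. With so few reads on genes, a count of 0 does not show that a member was unbound.

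The members shared little else. They lie on 15 chromosomes, with 4 each on chromosomes 1 and 5, and their exons sum to 798 to 14645 bases with a median of 3760. Wild type level per kilobase and log2 fold change had a Spearman correlation of 0.26 across the 34 members, which share the same libraries and are not independent. Members that varied more among wild type libraries also varied more among Mov10-/- libraries (Spearman 0.72 between the ratios of highest to lowest library, across 34 members), and the median ratio was 1.33 in wild type and 1.67 in Mov10-/- testes. Cfap97d1, Cfap100 and Cfap77 had the 3 largest ratios in wild type, at 6.41, 6.04 and 3.43, and Cfap20dc the smallest at 1.01.

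12 members share exon bases with another gene, in most cases on the opposite strand, and the sources used here do not give the strand setting of the counting. The overlap was 44.2% of the exons of Cfap298 (with a predicted transcript) and 0.3% of those of Cfap100. The value of Cfap298 could therefore be affected by its overlap, unlike those of Cfap97d1, Cfap47 and Cfap58, which share no exon bases. Its standard error (0.17) was smaller than theirs (0.94, 0.34 and 0.37).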

How the data were processed

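RNA-seq of P21 testes (3 wild type, 3 Mov10-/-) and MOV10 CLIP-seq (4 libraries) were used. The deposited values are unnormalized counts for each Ensembl gene, made by the authors with STAR (mm10) and htseq-count (Ensembl v99) after trimming of adapters. Tool versions are not given in the sources used here. For CLIP-seq the methods point to earlier work and to scaling by the total of mapped reads, while the deposited CLIP-seq values are unscaled counts in the same layout. Rows that name no gene held 52.8% to 71.7% of RNA-seq reads and were left out.

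Members and lists were chosen with earlier results of these data known. Members were found by symbol in GENCODE M21 and RefSeq GRCm38.p6, joined by gene identifier. After TMM scaling, edgeR 4.0.16 in R 4.3.3 gave quasi-likelihood tests for 20240 genes (over 1 RPM in 3 or more of 6 libraries), adjusted by Benjamini-Hochberg. Calls used the study's thresholds of 2-fold and an adjusted p of 0.05. The study names edgeR but not the test, so that its exact and likelihood ratio tests, DESeq2 1.42.0 and limma 3.58.1 (voom) were alternatives, beside other scalings and filters, the replicate number as a block, and fits without 1 library. The fits were tested on simulated counts. Values in every library were given for members whose groups do not overlap, the spermatid-late list, the 4 with the highest level per kb and the 4 nearest to 0. Cfap73 and Cfap77 were added after their values were seen. CLIP-seq reads were only summed. Genes that carry CFAP only as a synonym were kept apart. Figures were made with Python 3.11.15.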

Additional observations from a re-analysis of the deposited data

How the results depend on the processing

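The count of 0 called members was the same in every fit with edgeR's quasi-likelihood test and in voom, and was 3 in DESeq2 and 4 in edgeR's exact and likelihood ratio tests. Over all genes the quasi-likelihood test called 1 lower and 0 higher, the exact test 1031 and 70, the likelihood ratio test 1104 and 83, DESeq2 988 and 51 and voom 1 and 1. The count of members at an unadjusted p under 0.05 was 13 without a filter beyond 1 read and 13 with total counts as library size, and 4 to 16 with each replicate left out. The share of all genes lower at that threshold was 11.6%, 12.4%, and 6.47% to 11.7% in the same fits. The count with groups apart was 12 with total counts, where 15.3% of all genes were below, and 9 to 22 with each replicate left out. All of these members were below the wild type except 2 of the 10 without Mov10-/- replicate 2, which were above, and the shares of all genes were 14.5% to 21.9% below and 14.4% to 19.5% above. The median log2 fold change was negative in all alternatives, from -0.46 to -0.10. Mov10 kept its direction (-2.08 to -1.95 with each replicate left out), but its adjusted p was 0.106 without Mov10-/- replicate 3 and 0.143 without Mov10-/- replicate 4.

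Of 544 values of single members over 16 alternatives, 516 kept their direction and side of the threshold, 11 passed the threshold only in the alternative (with the exact test, the likelihood ratio test and DESeq2), 0 lost a call and 17 changed sign, all of them near 0. Of these, 8 changed sign without Mov10-/- replicate 2 and 5 without wild type replicate 2. With each replicate left out, Cfap99 ranged from -0.40 to 0.089, Cfap46 from -0.34 to 0.053, Cfap74 from -0.30 to 0.067, Cfap206 from -0.27 to 0.031, Cfap20dc from -0.19 to 0.068, Cfap298 from -0.24 to 0.066, Cfap36 from -0.19 to 0.057, Cfap65 from -0.24 to 0.12, Cfap410 from -0.066 to 0.16 and Cfap20 from -0.012 to 0.18. The cause was not tested.

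The genotypes share replicate numbers 2 and 3, but deviations from the group means correlated at -0.48 and -0.35 between libraries of the same number. The main fit did not pair the samples. Correlations over 3 libraries per genotype cannot settle whether the numbers pair them. With the replicate number as a block, only the libraries numbered 2 and 3 inform the fold change. The remaining library of each genotype has no partner of its number. The values with the block thus rest on fewer libraries than those of the main fit. With the block 0 members were called and 6 were at an unadjusted p under 0.05, and the median was -0.41. Cfap410 was at -0.092, and 145 genes were called lower and 36 higher over all genes.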

Other observations

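Maats1 and Wdr66 encode CFAP91 and CFAP251, parts of the calmodulin and spoke associated complex together with Cfap61. They do not carry the Cfap symbol in the annotations used here. Maats1 was at 93.6 ± 21.8 CPM in wild type and 63.1 ± 21.2 CPM in Mov10-/- testes (SD, n = 3 each), with a log2 fold change of -0.58 (SE 0.26). Wdr66 was at 185 ± 25.4 and 166 ± 46.7 CPM, with a log2 fold change of -0.16 (SE 0.20). The groups overlapped in both, and Mov10-/- replicate 2 was the lowest library, as in 31 of the 34 genes with the symbol.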
